A study of Mus musculus with 8 samples.

Results

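The 10 genes described here are Id1, Id2, Id3, Id4, Smad6, Smad9, Bmp4, Bmper, Grem1 and Atoh8, a set of BMP (bone morphogenetic protein) signals, antagonists and response genes. They were chosen by symbol from the 26930 genes of the count table, and each symbol matched 1 row. RNA was sequenced from mouse cells on day 8 of reprogramming from embryonic fibroblasts by the OKSM factors (Pou5f1, Klf4, Sox2 and Myc), in a medium named AGi in the labels. The 4 groups of 2 libraries were WT cells with 250 nM Repsox, WT cells with 2.5 ng/ml TGFb-1, K36M cells with 250 nM Repsox and K36M cells with 2.5 ng/ml TGFb-1. Repsox inhibits the TGF-beta type I receptor kinase, and K36M is a histone H3 in which methionine stands in place of lysine 36. WT is also described in the labels as H3. The labels do not state how either histone was expressed, and there was no group without Repsox or TGF-beta, so a difference between the media cannot be assigned to either agent. Nor do they give the origin of the 2 libraries of a group: where these share a culture or an animal, the spread behind the p-values is that between libraries and may be technical.

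BMPs are secreted ligands of the TGF-beta family that bind paired type I and type II receptor kinases. The active type I receptor phosphorylates SMAD1, SMAD5 and SMAD9, which enter the nucleus with SMAD4 and bind regulatory DNA. The ID genes are the best known direct targets of that signal: ID proteins have a helix-loop-helix but no DNA-binding region, and hold E proteins and other basic helix-loop-helix (bHLH) factors away from DNA. The signal is restrained outside the cell by antagonists such as gremlin 1 (Grem1) and inside it by SMAD6. BMP signalling is known in fibroblast reprogramming for its link with the early passage from mesenchymal to epithelial cells, and in mouse embryonic stem cells for maintaining self-renewal through the ID genes.

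On mm9 (GENCODE vM1), the ID genes lie on 4 chromosomes: Id1 on chromosome 2 (152561987 to 152563146, plus strand), Id2 on chromosome 12 (25778666 to 25780957, minus), Id3 on chromosome 4 (135699412 to 135701670, plus) and Id4 on chromosome 13 (48356796 to 48359405, plus). Smad6 lies on chromosome 9 (63800953 to 63869866, minus), as does Bmper (23027520 to 23289646, plus). Smad9 lies on chromosome 3 (54559504 to 54605179, plus), Bmp4 on chromosome 14 (47003195 to 47010344, minus), Grem1 on chromosome 2 (113586321 to 113598803, minus) and Atoh8 on chromosome 6 (72156171 to 72185571, minus). The counts are per gene and do not say which transcript was read. Id4 shares 171 exonic bases with A330033J07Rik on the opposite strand, which had 124 counts over all 8 libraries, and Bmp4 shares 89 with Gm15217. The strand setting of the counting was not given in the sources used here, so reads of these pairs cannot be told apart.

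Promoter sequences were available from RefSeq (GRCm38.p6) for 9 of the 10 genes, all but Id1. The 250 bases before each gene's start were searched on both strands for the GC-rich motif GGCGCC, which SMAD1 and SMAD5 are known to bind. It was present once in 4 of the 9 windows, those of Id2, Id4, Smad9 and Grem1, and in 9.65% of 32536 promoter windows of the same length. The 4 windows are shown because they are the members whose window holds the motif, and they belong to genes of different roles. Each is given 5′ to 3′ on the gene's own strand, with the motif in capitals.

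Id2, chr12:25096093-25096342, minus strand: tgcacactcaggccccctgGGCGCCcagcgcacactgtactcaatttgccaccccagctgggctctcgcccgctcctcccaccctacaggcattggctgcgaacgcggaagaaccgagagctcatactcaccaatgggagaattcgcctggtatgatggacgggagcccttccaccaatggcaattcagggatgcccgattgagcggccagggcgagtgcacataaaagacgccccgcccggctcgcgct
Id4, chr13:48260866-48261115, plus strand: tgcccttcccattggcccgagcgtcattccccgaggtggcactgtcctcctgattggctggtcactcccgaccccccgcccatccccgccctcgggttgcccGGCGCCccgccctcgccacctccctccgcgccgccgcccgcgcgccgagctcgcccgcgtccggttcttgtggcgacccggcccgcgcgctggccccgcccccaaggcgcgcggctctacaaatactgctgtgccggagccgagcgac
Smad9, chr3:54755332-54755581, plus strand: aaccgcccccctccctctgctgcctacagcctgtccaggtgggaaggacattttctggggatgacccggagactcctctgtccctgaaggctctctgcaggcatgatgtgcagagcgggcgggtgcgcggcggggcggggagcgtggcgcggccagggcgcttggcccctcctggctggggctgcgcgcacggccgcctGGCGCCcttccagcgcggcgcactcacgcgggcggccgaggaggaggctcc
Grem1, chr2:113758649-113758898, minus strand: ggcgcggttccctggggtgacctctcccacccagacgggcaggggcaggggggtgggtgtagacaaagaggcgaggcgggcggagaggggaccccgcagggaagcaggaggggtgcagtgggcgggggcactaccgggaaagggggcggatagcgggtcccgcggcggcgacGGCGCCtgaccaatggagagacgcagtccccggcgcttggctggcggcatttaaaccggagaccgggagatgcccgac

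The motif starts 231 bases before the gene start in Id2, 148 in Id4, 51 in Smad9 and 78 in Grem1. The 9 windows are GC-rich, from 62.8% in Id2 and Id3 to 75.6% in Id4, against a median of 52.4% over all windows, and the share over all windows is not matched for GC content. The longer motif GGCGNCNNNNNGTCT, the form found in enhancers of the ID genes, was in none of the 9 windows and in 0.194% of all windows. E-boxes (CANNTG), the sites of the bHLH factors that ID proteins hold back, were in the windows of Id2, Smad9, Bmp4 and Atoh8, 4 of 9, and in 66.2% of all windows. A match describes these letters and is not evidence of binding, and enhancers outside the window were not searched.

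Libraries held 10928302 to 15594217 counts, and levels are given as CPM (CPM scale each library's counts to a common size, here with TMM factors). Tests are edgeR's quasi-likelihood F test over all 8 libraries and 15789 genes. A gene is called where the Benjamini-Hochberg adjusted p is below 0.05. The error given with a log2 difference is the size of that difference divided by the square root of its F statistic. It stands in for a standard error and can be too small where a group holds few counts. A level given with ± is a mean with its SD (n = 2). All 10 members passed the filter on low counts. The cell-type markers differed between the groups too. The summed level of 12 fibroblast markers was 5730 to 6350 CPM in the WT Repsox libraries, 18500 to 20000 in the WT TGF-beta libraries, 1990 to 2020 in the K36M Repsox libraries and 2920 to 3080 in the K36M TGF-beta libraries, with none of the 12 at 0. That of 10 epithelial markers was 2190 to 2310, 139 to 177, 5140 to 5350 and 3930 to 4100 CPM in the same order, and that of 10 pluripotency markers 902 to 1070, 22.6 to 31.8, 1280 to 1310 and 816 to 822 CPM. Counts per gene of the reprogramming factors cannot tell introduced copies from the cells' own genes. Of these factors, Klf4 was lower in K36M by 1.40 ± 0.07 on the log2 scale under Repsox and by 1.73 ± 0.07 under TGF-beta. Myc was lower by 1.45 ± 0.07 and 1.63 ± 0.07 in the same order. Pou5f1 (log2 -0.94 ± 0.07 under Repsox and -0.46 ± 0.07 under TGF-beta) and Sox2 (-0.64 ± 0.07 and -1.56 ± 0.08) were lower in K36M too. The part of these shifts in the differences below was not tested, and in bulk RNA fewer cells of a type and less RNA per cell cannot be told apart.

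WT cells under Repsox had the highest level of 9 of the 10 genes. The exception was Bmper, which was highest in WT cells under TGF-beta. Under Repsox, K36M was lower than WT for 10 of 10 members and higher for 0, where 26.9% of all tested genes were called lower and 28.8% higher. The median log2 difference of the members was -1.81, against 0.035 for all tested genes. Under TGF-beta, 6 members were lower in K36M, 2 were higher and 2 were not called, where 33.9% of all genes were called lower and 36.4% higher, and the medians were -0.55 and 0.051. Id2 and Bmp4 were the 2 that were higher. In WT cells, 9 members were lower under TGF-beta than under Repsox and 1 was higher, where 33.4% of all genes were called lower and 29% higher, with medians of -1.43 and -0.068. In K36M cells, 5 were lower, 1 was higher and 4 were not called, where 23.6% of all genes were called lower and 24.7% higher, with medians of -0.45 and 0.009. The members were chosen with earlier results of these data known, so these counts are a description and not a test of the set.

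**Figure D1:**
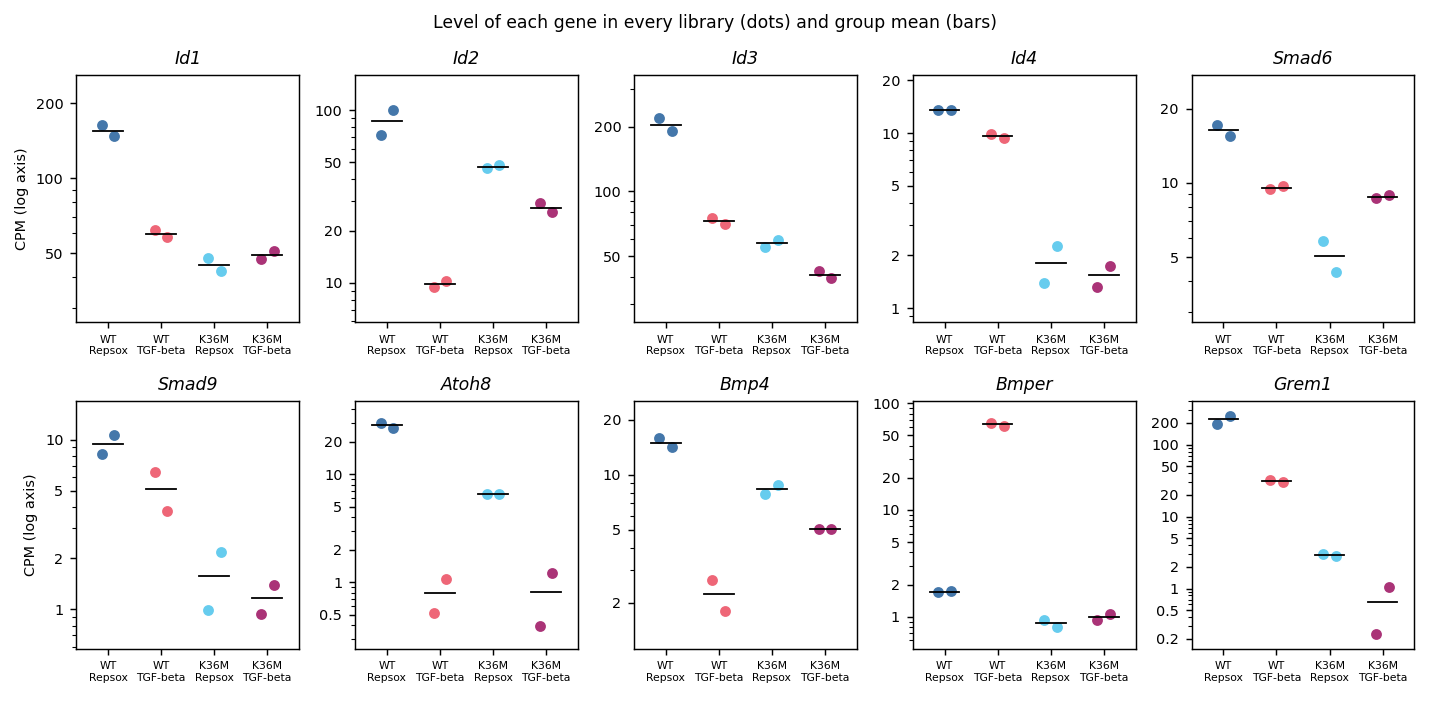
Level of each of the 10 genes in every library, as CPM on a log axis, in the 4 groups of 2 libraries (points are libraries and the short lines are group means). Grem1 spans 0.234 to 253 CPM, and Bmper is at 61.5 and 65.8 CPM in WT under TGF-beta and at 0.804 to 1.74 CPM in the other 6 libraries.

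The interaction term, the TGF-beta against Repsox difference in K36M minus that in WT, tests whether the medium difference depended on the genotype. It was called positive for 6 members and negative for 1, where 28.5% of all genes were called positive and 22.6% negative, and the medians were 1.26 and 0.093. Scaling by library totals alone, without TMM, moved the median of all genes by 0.221 in this term, by -0.208 in the WT medium comparison and by 0.197 in the K36M comparison under TGF-beta. The share of positive among called genes then went from 55.8% to 69.8% for the interaction and the share of higher among called genes from 46.5% to 33.8% for WT. The values below are from TMM scaling, which takes the bulk of genes as the reference.

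**Figure D2:**
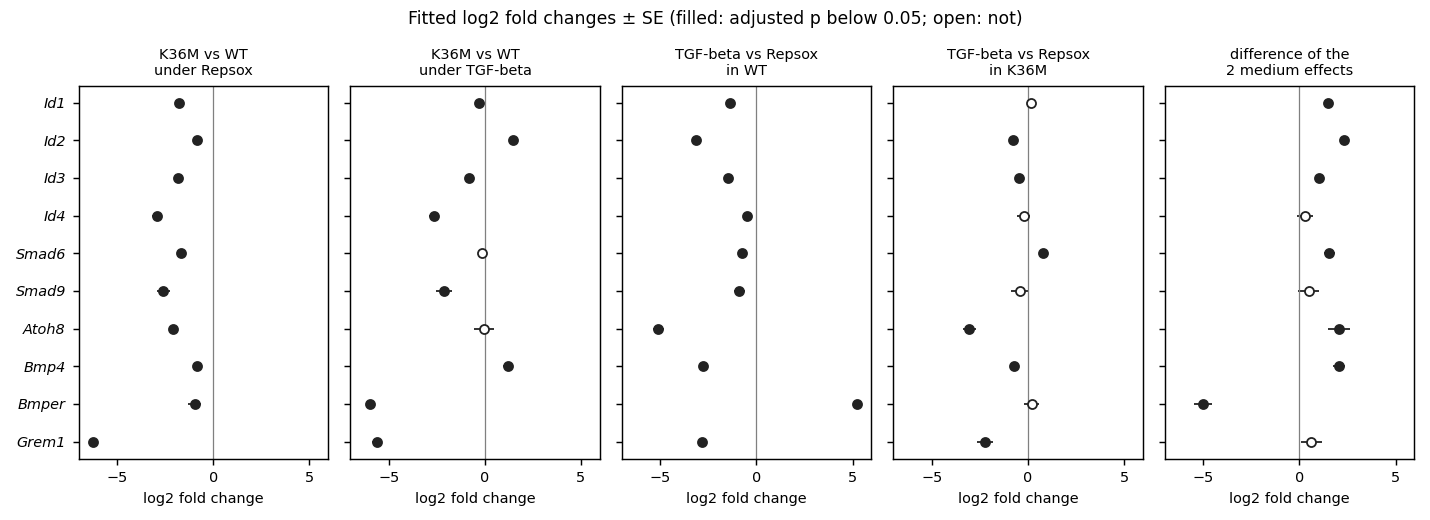
Log2 difference between K36M and WT for the 10 genes under Repsox and under TGF-beta, with the errors defined in the text as bars. All 10 are below 0 under Repsox, and Id2 and Bmp4 are above 0 under TGF-beta.

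The ID genes are described together, since they encode inhibitors of the same class of bHLH factors. Their summed level was 467 and 452 CPM in the WT Repsox libraries, 156 and 148 in the WT TGF-beta libraries, 150 and 152 in the K36M Repsox libraries, and 120 and 118 in the K36M TGF-beta libraries. WT cells under Repsox therefore stood apart, and the other 3 groups lay close to each other in the sum. The composition of the sum was different. Id2 made up 15.4% and 22.3% of the ID counts in the WT Repsox libraries, 6.06% and 6.94% in the WT TGF-beta libraries, 30.6% and 31.6% in the K36M Repsox libraries, and 24.0% and 21.7% in the K36M TGF-beta libraries. Id4 was 6.33% and 6.31% in WT under TGF-beta and at most 1.48% in every K36M library. These shares compare each gene across groups and are not corrected for gene length.

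**Figure D3:**
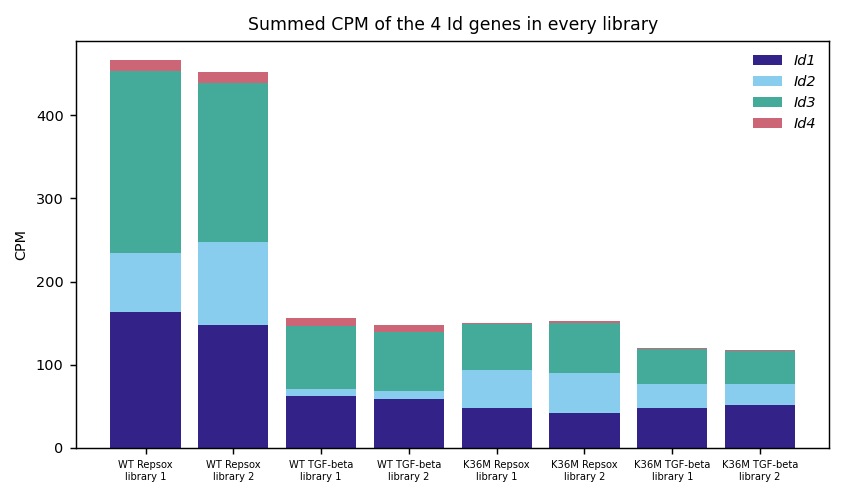
Summed CPM of Id1, Id2, Id3 and Id4 in each of the 8 libraries, as bars from 0 stacked by gene. The sum is 452 to 467 CPM in WT under Repsox and 118 to 156 CPM in the other 6 libraries, and the Id2 segment is smallest in WT under TGF-beta.

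Id1, whose transcripts merge into 1 exon of 1160 bases, is widely used as a readout of BMP signalling. It stood at 163 and 147 CPM in the WT Repsox libraries, 61.6 and 58.1 in the WT TGF-beta libraries, 47.6 and 42.2 in the K36M Repsox libraries, and 47.5 and 51.1 in the K36M TGF-beta libraries. The 2 WT Repsox libraries were high, and the other 6 lay between 42.2 and 61.6 CPM. Id1 was 3.45-fold lower in K36M under Repsox (log2 -1.79 ± 0.09, adjusted p = 1.98e-13 by edgeR) and 2.59-fold lower under TGF-beta in WT (log2 -1.38 ± 0.09, adjusted p = 6.72e-12). Between the media in K36M the libraries overlapped and the difference was not called (log2 0.13 ± 0.10, adjusted p = 0.271). Under TGF-beta, Id1 was 1.21-fold lower in K36M (log2 -0.28 ± 0.09, adjusted p = 0.0119). That call was lost with library totals alone (adjusted p = 0.452), on leaving out WT TGF-beta library 1 (0.0801) or without K36M TGF-beta library 1 (0.112), within a range of 0.00338 to 0.452 over all alternatives. The interaction was 1.51 ± 0.13 (adjusted p = 2.32e-09).

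Id3 is a BMP target often induced together with Id1. It stood at 218 and 191 CPM in the WT Repsox libraries, 75.3 and 70.3 in the WT TGF-beta libraries, 55.3 and 59.5 in the K36M Repsox libraries, and 42.6 and 39.4 in the K36M TGF-beta libraries. The 4 groups did not overlap and ran in that order, from WT under Repsox down to K36M under TGF-beta. Id3 was 3.57-fold lower in K36M under Repsox (log2 -1.84 ± 0.09, adjusted p = 1.26e-13 by edgeR) and 1.77-fold lower under TGF-beta (log2 -0.83 ± 0.10, adjusted p = 9.48e-08). TGF-beta cells were 2.81-fold lower than Repsox cells in WT (log2 -1.49 ± 0.09) and 1.40-fold lower in K36M (log2 -0.48 ± 0.10, adjusted p = 0.000264). The interaction was 1.01 ± 0.13 (adjusted p = 1.18e-06), so the medium difference of Id3 was smaller in K36M.

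Id2, which also acts in lymphoid and mammary development, had a different order. It stood at 71.7 and 100.7 CPM in the WT Repsox libraries, 9.47 and 10.3 in the WT TGF-beta libraries, 46.0 and 47.9 in the K36M Repsox libraries, and 28.9 and 25.6 in the K36M TGF-beta libraries. WT under TGF-beta was lowest, and the groups did not overlap. Id2 was 1.83-fold lower in K36M under Repsox (log2 -0.87 ± 0.12, adjusted p = 2.62e-06 by edgeR) but 2.76-fold higher in K36M under TGF-beta (log2 1.46 ± 0.16, adjusted p = 3.38e-08). The medium difference was 8.69-fold in WT (log2 -3.12 ± 0.15) and 1.72-fold in K36M (log2 -0.78 ± 0.13, adjusted p = 4.18e-05), both lower under TGF-beta. Their difference was 2.34 ± 0.20 (adjusted p = 2.07e-09).

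Id4, best known from the nervous system and germline stem cells, was split by genotype. It stood at 13.5 CPM in both WT Repsox libraries, 9.90 and 9.33 in the WT TGF-beta libraries, 1.38 and 2.25 in the K36M Repsox libraries, and 1.33 and 1.75 in the K36M TGF-beta libraries. Every WT library was above every K36M library, which was also so for Id1, Id3, Smad6, Smad9 and Grem1. K36M was 7.53-fold lower under Repsox (log2 -2.91 ± 0.25, adjusted p = 1.79e-09 by edgeR) and 6.25-fold lower under TGF-beta (log2 -2.64 ± 0.28, adjusted p = 1.68e-08). The medium difference in WT was 1.41-fold (log2 -0.49 ± 0.20, adjusted p = 0.0407). It was lost in 6 of 16 alternatives: with RLE scaling (adjusted p = 0.0624), with DESeq2 (0.230) and without WT Repsox library 1 (0.0880), WT Repsox library 2 (0.0824), WT TGF-beta library 1 (0.0926) or WT TGF-beta library 2 (0.159), within a range of 0.00578 to 0.23. In K36M the media overlapped (log2 -0.22 ± 0.35, adjusted p = 0.634), and the interaction was not called (0.27 ± 0.41, adjusted p = 0.616).

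Bmp4, the only ligand among the 10 genes, is needed for mesoderm formation in the embryo and supports self-renewal of mouse embryonic stem cells. It stood at 15.9 and 14.2 CPM in the WT Repsox libraries, 2.67 and 1.80 in the WT TGF-beta libraries, 7.90 and 8.85 in the K36M Repsox libraries, and 5.08 and 5.07 in the K36M TGF-beta libraries. The order of its groups was that of Id2: WT under Repsox, K36M under Repsox, K36M under TGF-beta and WT under TGF-beta, without overlap. Bmp4 was 1.80-fold lower in K36M under Repsox (log2 -0.85 ± 0.19, adjusted p = 0.000704 by edgeR) and 2.30-fold higher in K36M under TGF-beta (log2 1.20 ± 0.27, adjusted p = 0.000412). Under TGF-beta it was 6.82-fold lower in WT (log2 -2.77 ± 0.24, adjusted p = 6.76e-10) and 1.65-fold lower in K36M (log2 -0.72 ± 0.22, adjusted p = 0.00948). The K36M call was lost with DESeq2 (adjusted p = 0.0547) and without K36M Repsox library 2 (0.0593), within a range of 0.00496 to 0.0593. The interaction was 2.05 ± 0.33 (adjusted p = 1.81e-05).

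Smad9 encodes a receptor-activated SMAD of the BMP branch and is itself a target of the signal. It stood at 8.22 and 10.6 CPM in the WT Repsox libraries, 6.46 and 3.81 in the WT TGF-beta libraries, 0.988 and 2.17 in the K36M Repsox libraries, and 0.938 and 1.40 in the K36M TGF-beta libraries. As for Id4, Id1, Id3, Smad6 and Grem1, every WT library was above every K36M library. K36M was 6.07-fold lower under Repsox (log2 -2.60 ± 0.34, adjusted p = 1.00e-06 by edgeR) and 4.36-fold lower under TGF-beta (log2 -2.12 ± 0.39, adjusted p = 5.48e-05). The first was 9.4-fold without K36M Repsox library 2, within log2 -3.232 to -2.105 on leaving out 1 library at a time. The medium difference in WT was 1.85-fold (log2 -0.89 ± 0.29, adjusted p = 0.0113). It was lost with DESeq2 (adjusted p = 0.0950) and without WT Repsox library 2 (0.0836) or WT TGF-beta library 2 (0.181), within a range of 0.000771 to 0.181. In K36M it was -0.41 ± 0.47 on the log2 scale with overlapping libraries (adjusted p = 0.502).

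Smad6, the inhibitory SMAD that restrains BMP receptors and is induced by them, stood at 17.3 and 15.5 CPM in the WT Repsox libraries, 9.47 and 9.69 in the WT TGF-beta libraries, 5.79 and 4.34 in the K36M Repsox libraries, and 8.67 and 8.91 in the K36M TGF-beta libraries. K36M under Repsox was the lowest group, and both TGF-beta groups lay between 8.67 and 9.69 CPM. Smad6 was 3.20-fold lower in K36M under Repsox (log2 -1.68 ± 0.19, adjusted p = 1.11e-07 by edgeR) and was not called under TGF-beta (log2 -0.12 ± 0.19, adjusted p = 0.572), where library totals alone gave 0.074. The medium difference had opposite signs in the genotypes. TGF-beta cells were 1.71-fold lower in WT (log2 -0.77 ± 0.18, adjusted p = 0.000632) and 1.72-fold higher in K36M (log2 0.78 ± 0.20, adjusted p = 0.00299), and the interaction was 1.55 ± 0.27 (adjusted p = 4.65e-05). The K36M call was lost without K36M Repsox library 2 (adjusted p = 0.0567; range 0.00127 to 0.0567).

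Atoh8, a bHLH factor that BMP signalling is known to induce in hepatocytes and endothelial cells, was split by medium. It stood at 29.9 and 27.1 CPM in the WT Repsox libraries, 0.517 and 1.08 in the WT TGF-beta libraries, 6.52 and 6.60 in the K36M Repsox libraries, and 0.391 and 1.22 in the K36M TGF-beta libraries. The TGF-beta libraries held 5 to 15 counts each. Atoh8 was 4.34-fold lower in K36M under Repsox (log2 -2.12 ± 0.21, adjusted p = 1.03e-08 by edgeR), while the genotypes overlapped under TGF-beta (log2 -0.060 ± 0.52, adjusted p = 0.925), a difference whose sign changed with library totals alone (0.14). TGF-beta cells were 34.4-fold lower in WT (log2 -5.10 ± 0.29, adjusted p = 5.55e-13), or 54.3-fold without WT TGF-beta library 2. Leaving out 1 library at a time gave log2 -5.763 to -4.707 in WT. In K36M, TGF-beta cells were 8.25-fold lower (log2 -3.04 ± 0.35, adjusted p = 1.50e-07), or 5.33-fold without K36M TGF-beta library 1 and 16.4-fold without library 2. The interaction of 2.06 ± 0.58 (adjusted p = 0.00482) fell to 1.07 and was lost without K36M TGF-beta library 2 (adjusted p = 0.304; range 0.000549 to 0.304). It was 2.72 without WT TGF-beta library 2 and 2.69 without K36M TGF-beta library 1.

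Grem1, a secreted antagonist that binds BMP2, BMP4 and BMP7 and is known from limb mesenchyme and fibroblasts, had the widest range of the 10 genes. It stood at 193 and 253 CPM in the WT Repsox libraries, 31.7 and 30.3 in the WT TGF-beta libraries, 3.03 and 2.82 in the K36M Repsox libraries, and 0.234 and 1.05 in the K36M TGF-beta libraries. No 2 groups overlapped, and the last held 3 and 12 counts. Grem1 was 75.9-fold lower in K36M under Repsox (log2 -6.25 ± 0.17, adjusted p = 6.79e-18 by edgeR) and 49.3-fold lower under TGF-beta (log2 -5.62 ± 0.27, adjusted p = 2.30e-14), the second being 29.2-fold without K36M TGF-beta library 1 and 127-fold without library 2. TGF-beta cells were 7.20-fold lower than Repsox cells in WT (log2 -2.85 ± 0.13, adjusted p = 6.78e-15). In K36M they were 4.68-fold lower (log2 -2.23 ± 0.43, adjusted p = 0.000162), or 2.78-fold without K36M TGF-beta library 1 and 12.1-fold without library 2. The interaction was not called (0.62 ± 0.55, adjusted p = 0.361), which does not show that the medium differences were equal. Of the 12 fibroblast markers, 12 were lower in K36M under Repsox, and 9 were lower and 1 higher under TGF-beta. Between the media in WT, 5 of the 12 were lower under TGF-beta, as Grem1 was, and 6 were higher. Their part in the Grem1 differences was not tested.

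Bmper encodes crossveinless-2, a secreted protein that binds BMPs and, depending on context, blocks or aids their signal. It stood at 1.69 and 1.74 CPM in the WT Repsox libraries, 65.8 and 61.5 in the WT TGF-beta libraries, 0.922 and 0.804 in the K36M Repsox libraries, and 0.938 and 1.05 in the K36M TGF-beta libraries. The high level was therefore confined to the 2 libraries of WT under TGF-beta among these 8. Bmper was 37.0-fold higher under TGF-beta in WT (log2 5.21 ± 0.18, adjusted p = 7.43e-17 by edgeR), and in K36M the medium difference was not called (log2 0.19 ± 0.39, adjusted p = 0.736). Under TGF-beta, K36M was 63.6-fold lower (log2 -5.99 ± 0.20, adjusted p = 3.85e-17), and the interaction was -5.02 ± 0.48 (adjusted p = 1.10e-08). Under Repsox, K36M was 1.96-fold lower (log2 -0.97 ± 0.33, adjusted p = 0.0165). That call was lost with limma-voom (adjusted p = 0.0836), in the fit of the 4 libraries alone (0.0649) and without WT Repsox library 2 (0.0514), K36M Repsox library 1 (0.0515) or K36M Repsox library 2 (0.0810), within a range of 0.0149 to 0.0836. The fibroblast marker sum was highest in the same group as Bmper, but the list was split there: 6 of its 12 genes were higher and 5 lower under TGF-beta in WT. Bmper is known from endothelial cells as well, and the sum of 8 endothelial markers was 120 to 121 CPM in that group against 51.5 to 51.9 in WT under Repsox. Of the 7 tested, 1 was higher and 5 were lower under TGF-beta in WT, and Tie1, Emcn and Cldn5 were at 0 there. The part of either list in the Bmper difference was not tested.

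Per kilobase of merged exon, the order of the genes differed between groups. Id1 had the highest level in all 4, from 134 CPM per kb in WT under Repsox to 38.7 in K36M under Repsox. Grem1 was the fourth highest in WT under Repsox, at 53.8 CPM per kb, and the lowest in K36M under TGF-beta, at 0.155. Bmper went the other way in WT, from 0.451 CPM per kb and the lowest place under Repsox to 16.8 and the third place under TGF-beta. Of Grem1 and Bmper, the gene with the higher level per kb was thus Grem1 in both Repsox groups and Bmper in both TGF-beta groups. In K36M, though, both genes were below 1 CPM per kb. The K36M TGF-beta libraries held 3 and 12 counts of Grem1 and 12 and 12 of Bmper, and the order of the 2 genes was not tested.

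The other genes of the pathway were followed in lists of ligands, receptors, SMADs, extracellular antagonists and modulators, BMP target genes and bHLH factors, 73 genes without the 10 members, of which 58 were tested. In K36M against WT, 15 of the 58 were higher and 30 lower under Repsox (28.8% and 26.9% of all tested genes), and 17 were higher and 31 lower under TGF-beta (36.4% and 33.9%). In TGF-beta against Repsox, 25 were higher and 20 lower in WT (29% and 33.4%), and 19 were higher and 14 lower in K36M (24.7% and 23.6%). Counts in the lists below are to be read against these shares, since several lie near them, and against the medians of all genes given above. The uniform lower calls of the 10 members in K36M under Repsox were thus not shared by all genes of the pathway.

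Of 7 tested ligands, 4 were higher and 2 lower in K36M in each medium, with median log2 differences of 1.35 under Repsox and 1.08 under TGF-beta. Bmp2, a ligand that acts through the same receptors as BMP4, stood at 9.66 ± 0.224 CPM with Repsox in WT. It was 36.7-fold lower in K36M with Repsox (log2 -5.20 ± 0.44), where the libraries held only 3 and 4 counts. Bmp7, a ligand of epithelia and kidney, moved the other way: it stood at 4.07 ± 0.126 CPM in the WT Repsox libraries, 0.187 ± 0.142 in the WT TGF-beta libraries, 14.7 ± 0.595 in the K36M Repsox libraries and 17.7 ± 1.52 in the K36M TGF-beta libraries (K36M against WT, log2 1.85 ± 0.20 with Repsox and 6.43 ± 0.35 with TGF-beta). The second, 86.4-fold, was 185-fold without WT TGF-beta library 2, within log2 5.891 to 7.533 on leaving out 1 library at a time. Bmp6 was lower in K36M under Repsox (log2 -1.50 ± 0.15) and higher under TGF-beta (log2 1.08 ± 0.17), the signs that Bmp4 and Id2 had. In WT, 5 ligands were lower under TGF-beta and 1 was higher. Bmp8b, a ligand known from germ cell formation, was lower under TGF-beta in WT (log2 -1.76 ± 0.21) and in K36M (log2 -1.16 ± 0.16).

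Of 11 tested receptors and co-receptors, K36M had 2 higher and 5 lower under Repsox and 4 higher and 7 lower under TGF-beta, with medians of -0.33 and -0.91. Acvr1, the type I receptor ALK2, stood at 31.8 ± 5.85 CPM in the WT Repsox libraries, 401 ± 4.13 in the WT TGF-beta libraries, 6.22 ± 1.44 in the K36M Repsox libraries and 26.0 ± 1.16 in the K36M TGF-beta libraries. It was 12.6-fold higher under TGF-beta in WT (log2 3.65 ± 0.11) and 4.23-fold higher in K36M (log2 2.08 ± 0.15), with an interaction of -1.57 ± 0.20. Bmpr2, the main type II receptor, was 4.18-fold higher under TGF-beta in WT (log2 2.06 ± 0.09) and 1.64-fold higher in K36M (log2 0.71 ± 0.09). Bmpr1a, the type I receptor ALK3, was 1.54-fold higher in K36M under Repsox (log2 0.63 ± 0.09, adjusted p = 2.04e-06 by edgeR) and did not differ beyond its spread between the media in WT (log2 0.007 ± 0.09, adjusted p = 0.955). Tgfbr3, the co-receptor betaglycan, was 33.8-fold lower under TGF-beta in WT (log2 -5.08 ± 0.17), from 99.4 ± 10.3 to 2.90 ± 0.570 CPM. In WT, 7 receptors were higher under TGF-beta and 3 lower. Eng, the co-receptor endoglin, was one of them, 2.94-fold higher (log2 1.55 ± 0.09), and in K36M it was 2.74-fold higher (log2 1.45 ± 0.10).

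Of the other 4 SMADs, 3 were lower in K36M in each medium, with medians of -0.42 under Repsox and -0.86 under TGF-beta. Smad5, an activator of the BMP signal, was 1.99-fold lower under Repsox (log2 -0.99 ± 0.09) and 2.18-fold lower under TGF-beta (log2 -1.13 ± 0.09). Smad1, its close relative, was 1.27-fold lower under Repsox (log2 -0.34 ± 0.11, adjusted p = 0.00928 by edgeR), a call lost without K36M Repsox library 1 (adjusted p = 0.0545) or library 2 (0.0573), and 1.51-fold lower under TGF-beta (log2 -0.59 ± 0.11). Smad7, the other inhibitory SMAD, was 5.03-fold higher under TGF-beta in WT (log2 2.33 ± 0.08) and 2.03-fold higher in K36M (log2 1.02 ± 0.09). In the same comparison, Smad6 had opposite signs in the genotypes. Smad4, the partner that the BMP and TGF-beta branches share, was not called in any comparison, with group means of 105 to 116 CPM.

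Of 17 tested extracellular antagonists and modulators, 10 were lower and 3 higher in K36M under Repsox, and 12 were lower and 1 higher under TGF-beta, with medians of -1.30 and -1.89. Fst, the activin and BMP antagonist follistatin, was 34.6-fold lower under Repsox (log2 -5.11 ± 0.16) and 12.0-fold lower under TGF-beta (log2 -3.59 ± 0.13). Fstl1, a related secreted glycoprotein, was 5.93-fold and 3.37-fold lower (log2 -2.57 ± 0.07 and -1.75 ± 0.06). Nog, the antagonist noggin, had 44 and 38 counts in WT under Repsox and 2 and 0 in K36M under Repsox, a ratio of 40.3 with an exact 95% interval of 10.8 to 339, which covers counting error only. Tll1, a protease that cleaves chordin, was, like Bmper, highest in WT under TGF-beta: its level was 1.90 ± 0.304 CPM in the WT Repsox libraries, 62.3 ± 1.44 in the WT TGF-beta libraries, 0.106 ± 0.0362 in the K36M Repsox libraries and 0.414 ± 0.0327 in the K36M TGF-beta libraries. Chrd, the antagonist chordin, was 2.26-fold lower in K36M under Repsox (log2 -1.18 ± 0.46, adjusted p = 0.0355 by edgeR), a call that depended on single libraries and on the tool. It was lost with DESeq2 (adjusted p = 0.143), without WT Repsox library 2 (0.190) and without K36M Repsox library 1 (1.40-fold, 0.448), and without K36M Repsox library 2 the difference was 4.89-fold (0.00264). In WT, 10 of the 17 were higher under TGF-beta and 0 lower, Grem1 not being in this list. In K36M, 6 were higher and 3 lower.

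Of 11 other known BMP target genes, 5 were higher and 3 lower in K36M in each medium, with medians of 0.60 under Repsox and 0.075 under TGF-beta. Gata2 was 2.64-fold higher in K36M under Repsox (log2 1.40 ± 0.09), and Gata3 2.86-fold (log2 1.52 ± 0.11); both encode zinc finger factors of trophoblast and blood, and Gata3 is also in the trophoblast marker list, whose sum was 274 to 308 CPM in WT under Repsox and 801 to 848 in K36M under Repsox. Under TGF-beta, Gata2 and Gata3 were lower than under Repsox in WT (log2 -2.49 ± 0.10 and -3.55 ± 0.18) and in K36M (-3.81 ± 0.11 and -1.32 ± 0.11). Msx2, a homeobox target, was lower under TGF-beta in WT (log2 -1.75 ± 0.19) and in K36M (log2 -1.39 ± 0.16). Msx1, its relative, was 3.52-fold lower in K36M under Repsox (log2 -1.82 ± 0.48). Bambi, a pseudoreceptor that BMP signalling induces, was not called in any comparison, with group means of 2.86 to 4.40 CPM.

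Of 8 tested bHLH factors that pair with or oppose ID proteins, 7 were lower and 1 higher in K36M under Repsox, with a median of -1.77, and 4 were lower and 3 higher under TGF-beta, with a median of -0.80. Under Repsox, all 3 E proteins, the main partners of ID proteins, were among the lower. Tcf4 was 5.39-fold lower in K36M under Repsox (log2 -2.43 ± 0.10), Tcf12 1.65-fold (log2 -0.73 ± 0.08) and Tcf3 1.27-fold (log2 -0.35 ± 0.09). Under TGF-beta, Tcf3 was 1.29-fold higher in K36M (log2 0.37 ± 0.09), while Tcf4 (log2 -1.03 ± 0.10) and Tcf12 (log2 -0.57 ± 0.08) were lower. Twist2, a mesenchymal bHLH factor, was 24.1-fold lower under TGF-beta in WT (log2 -4.59 ± 0.34). Twist1 is a related factor that dimerizes with E proteins and is also in the fibroblast list. It was 28.3-fold lower in K36M under Repsox (log2 -4.82 ± 0.24) and 10.9-fold lower under TGF-beta (log2 -3.44 ± 0.26). The first was 53.2-fold without K36M Repsox library 1, within log2 -5.732 to -4.343 on leaving out 1 library at a time.

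The genes whose pattern over the 8 libraries lay closest to 3 of the members were found among 10896 genes by the root mean square difference of log2 CPM, each gene centred on its own mean. They are a description with no test, since the libraries share the 4 groups. For Id1 they were Il34 (0.179 log2 units), Cnksr3 (0.185) and Fam43a (0.194). For Bmp4 they were Lama1 (0.158), which encodes a laminin chain of basement membranes, Zfp296 (0.162) and Socs3 (0.197), a feedback inhibitor of LIF and STAT3 signalling. Lama1 stood at 241 ± 17.1 CPM in the WT Repsox libraries, 42.4 ± 0.774 in the WT TGF-beta libraries, 149 ± 6.93 in the K36M Repsox libraries and 90.5 ± 1.83 in the K36M TGF-beta libraries, the same order as Bmp4. For Grem1 the nearest were farther off: Sema3a (0.721) and Sema6d (0.792), which encode semaphorin guidance proteins, and Svep1 (0.832). Sema3a stood at 27.4 ± 4.88 CPM in the WT Repsox libraries, 7.31 ± 0.381 in the WT TGF-beta libraries, 0.856 ± 0.186 in the K36M Repsox libraries and 0.170 ± 0.130 in the K36M TGF-beta libraries, again in the order of Grem1. By Pearson's correlation, 0 of the 3 genes for Id1, 2 for Bmp4 and 1 for Grem1 were the same.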

How the data were processed

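Per the labels' protocols, ribosomal RNA was removed from total RNA before sequencing of the 8 samples. The values used were the deposited counts, whole reads per gene in 1 table of 26930 genes, of which 3195 were at 0 in every library. STAR 2.5.0, HTSeq 0.11.2, edgeR and mm9 are named in the submitters' processing notes; for the counting, neither annotation nor strand setting is given in the sources used here.

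From these counts, filterByExpr (minimum count 10, minimum total 15) kept 15789 genes. TMM factors ran from 0.894 to 1.057. Group means were fitted and compared by quasi-likelihood F tests over all 8 libraries (edgeR 4.0.16, R 4.3.3), with 4 residual and 17.4 prior degrees of freedom and a common biological coefficient of variation of 0.0702, so the error of a gene whose 2 libraries differ widely can be understated. p-values were adjusted over all genes tested. Replicates differed by more than counting error (chi-square per degree of freedom 2.7 to 9.09). Exact 95% intervals of ratios are used where a group held 1 to 3 counts.

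Coordinates and exon lengths are from GENCODE vM1 on mm9, promoters from RefSeq on GRCm38.p6. The genes named are the 10 members, 18 followed pathway genes, the strongest call of each pathway list and comparison, the 3 genes most like Id1, Bmp4 and Grem1, and the reprogramming factors. The members and lists were chosen with earlier results of these data known. Alternatives were other scalings, filters, DESeq2 1.42.0, limma-voom 3.58.1, a replicate block, a fit of the compared libraries alone, and leaving out each library in turn. Nothing in the labels says that replicate numbers pair the libraries. Deviations of same-numbered libraries correlated at -0.0377 to 0.0926, which does not show that they were unpaired.

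The marker lists not described above gave these summed levels in WT under Repsox, WT under TGF-beta, K36M under Repsox and K36M under TGF-beta: primitive endoderm 90.7 to 97, 16.6 to 19.5, 39.2 to 42.3 and 28.9 to 34.2 CPM; cartilage and bone 219 to 272, 301 to 398, 507 to 508 and 510 to 538 CPM; skeletal muscle 5.82 to 9.57, 1.12 to 1.36, 18.5 to 19.1 and 44.3 to 49.5 CPM; neural 157 to 176, 1130 to 1270, 90.5 to 95.5 and 234 to 252 CPM; macrophage and blood 26.7 to 27.6, 16.4 to 17.9, 76.9 to 78.7 and 34.2 to 39 CPM. The trophoblast sum was 7.06 to 8.4 CPM in WT under TGF-beta and 264 to 281 in K36M under TGF-beta. The endothelial sum was 65.1 to 69.2 CPM in K36M under Repsox and 93.8 to 95 in K36M under TGF-beta. Of the skeletal muscle list, Myod1 and Myf5 were at 0 in every group but WT under Repsox. In each K36M group, 2 of its 6 genes had a mean of at least 1 CPM. Only 4 of the 6 neural genes were among the genes counted. A list's sum need not move as its single genes did. The cartilage and bone sum was larger in K36M. Yet in either medium, K36M exceeded WT for 2 of the 6 tested genes and fell below it for 3. With Repsox, the primitive endoderm sum was smaller in K36M, while 3 of its 6 tested genes were called up and 2 down. With TGF-beta that sum was larger, and 4 were called up and 0 down.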

Additional observations from a re-analysis of the deposited data

Results flagged for a closer look

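The TGF-beta against Repsox difference differed between K36M and WT for 7 of the 10 genes, by the test of that difference itself (edgeR interaction, adjusted p below 0.05), where 28.5% of all tested genes were called positive and 22.6% negative. The difference between the genotypes' log2 fold changes was 1.51 for Id1, 2.34 for Id2, 1.01 for Id3, 1.55 for Smad6, 2.05 for Bmp4 and 2.06 for Atoh8, each more positive in K36M, and -5.02 for Bmper. The call for Atoh8 was lost without K36M TGF-beta library 2. Groups of 2 libraries are too small for a check of single outlying libraries.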

How the results depend on the processing

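Over 16 alternatives for each pairwise comparison and 15 for the interaction, the number of the 10 genes called ran from 9 to 10 for K36M against WT under Repsox (10 in the fit described), 7 to 8 under TGF-beta (8), 8 to 10 for the media in WT (10), 4 to 6 in K36M (6) and 6 to 7 for the interaction (7). It was 4 in K36M without K36M Repsox library 2. The called pathway genes ran from 39 to 47 (45), 44 to 48 (48), 40 to 47 (45), 31 to 34 (33) and 30 to 37 (33) in the same order. Of 790 values for the 10 genes, 760 kept direction and side of the threshold, 21 lost their call, as given beside each gene above, and 9 changed sign. None of those 9 was called in the fit described.

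With library totals alone, the log2 difference of K36M against WT under TGF-beta became 0.074 for Smad6, 0.14 for Atoh8, 0.15 for Smad4 and 0.062 for Bambi, the media in WT -0.20 for Bmpr1a, -0.12 for Smad4 and -0.066 for Bambi, and the interaction 0.088 for Smad5, 0.033 for Smad4 and 0.12 for Eng. Without the filter on low counts Bmpr1a in WT was -0.0102. Leaving out 1 library at a time gave, for K36M against WT under TGF-beta, -1.05 to 0.60 for Atoh8, -0.12 to 0.019 for Smad4 and -0.063 to 0.20 for Gata2; for the media in WT, -0.15 to 0.17 for Bmpr1a; for the media in K36M, -0.56 to 0.14 for Id4, -0.90 to 0.22 for Smad9, -0.055 to 1.75 for Chrd, -0.16 to 1.24 for Twist1 and -0.35 to 5.44 for Twist2; and for the interaction, -0.066 to 0.63 for Id4, -0.017 to 1.11 for Smad9 and -0.74 to 1.38 for Grem1. A group left with 1 library was taken to vary like the others. The cause of these changes was not tested.

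With the replicate block, 10, 8, 10, 6 and 7 of the 10 genes were called in the 5 comparisons, as without it, and all-gene calls went from 8805 to 8880, 11098 to 11104, 9851 to 9866, 7626 to 7669 and 8055 to 8100. Nothing in the labels says that the numbers pair the libraries, so the block is not used. Counts were low for Atoh8 in the TGF-beta libraries (5 to 15 a library) and for Grem1 in K36M under TGF-beta (3 and 12), and Bmper outside WT under TGF-beta and Smad9 in K36M were also low, at 1.74 CPM or less and 2.17 CPM or less.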
